A study of Homo sapiens with 4 samples.

Results

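JAK-STAT signalling runs from a cytokine receptor through a JAK kinase to a STAT transcription factor, and it is held in check by genes that the STATs themselves switch on. The 10 genes described here are those with the symbols PIM1, PIM2, PIM3, SOCS1, SOCS2, SOCS3, CISH, JAK2, STAT5A and STAT3, out of 28103 symbols in the count table. They were taken by name, and all 10 passed the filter on low counts that left 13572 tested genes. The 7 feedback genes (PIM1, PIM2, PIM3, SOCS1, SOCS2, SOCS3 and CISH) are read apart from the kinase JAK2 and the factors STAT5A and STAT3. Of these 7, the SOCS genes and CISH are inhibitors of the pathway, whereas the PIM kinases favour survival and growth.

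The cells were HEL, an erythroleukaemia line of human origin that the labels call an erythroblast and that is known for a constitutively active JAK-STAT pathway, and their poly(A) RNA was sequenced. The 2 groups were cells labelled AFF4 knockdown and cells labelled Ctrl, of wild-type genotype, grown in the same medium, with 2 libraries in each. Here wild type sets the Ctrl cells against the knockdown and says nothing of the JAK2 gene of the line. The AFF4 protein holds the super elongation complex together, which releases paused RNA polymerase II. How the knockdown was made, whether it was carried by 1 clone and whether the replicates were separate cultures is left unsaid in the labels, so a p-value reflects the spread of these libraries alone, and that spread may be technical.

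As background, cytokine binding lets JAK2 phosphorylate receptor tails, on which STAT5A and STAT3 dock, are phosphorylated in turn and leave for the nucleus. SOCS proteins and CISH carry an SH2 domain that binds phosphorylated receptors or JAKs and a SOCS box that recruits a ubiquitin ligase, and so they shut the pathway down. PIM kinases are serine/threonine kinases that need no activating phosphorylation, so their activity follows their abundance, and they favour survival and growth. In erythroid and megakaryocytic cells the pathway carries the signals of erythropoietin and thrombopoietin.

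The libraries held between 14903878 and 19129008 counts, and the 10 most abundant genes took 4.16% to 4.84% of each. AFF4 had 338 and 319 counts in the knockdown libraries, against 1650 and 1033 in the Ctrl libraries, and it fell by 2.07 ± 0.19 on the log2 scale (SE; adjusted p = 0.0268 by the quasi-likelihood test of edgeR). The 9 erythroid markers were all detected and summed to 8523 and 8347 CPM (library-scaled counts, with TMM factors) in the knockdown libraries, against 11789 and 13316 CPM in the Ctrl libraries, and 1 of them (the fetal globin HBG1) fell. Of the 6 megakaryocytic markers GP1BB was at 0, the sum was 1912 and 2033 CPM in the knockdown libraries and 2038 and 2834 CPM in the Ctrl libraries, and 1 (the integrin chain ITGB3) fell. The lower erythroid sum was that of HBG1 and HBG2: without these globins, left out after the values were seen, the other 7 erythroid markers summed to 2044 and 2060 CPM in the knockdown libraries, against 1748 and 1917 CPM in the Ctrl libraries. Of the 9 erythroid log2 fold changes 5 were positive and 4 negative, with a median of 0.011, and of the 5 tested megakaryocytic ones 4 were negative, with a median of -0.69. The part of either list in the results below was not tested. Markers of B lymphocytes, fibroblasts and epithelium summed to at most 2.54, 0.201 and 1.82 CPM. Of the 5 T lymphocyte markers, CD3D, CD3E and CD3G were at 0 in all libraries, and the summed level of the list (81.6 and 85.0 CPM in the knockdown, 122 and 138 CPM in Ctrl) was almost all CD4.

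The lowest log2 fold changes among the 10 genes were those of SOCS3, PIM1 and PIM2, but 0 of the 10 passed the edgeR test at an adjusted p under 0.05, the threshold used throughout, which 0.641% of all tested genes passed. At an unadjusted p under 0.05, 4 were lower (PIM1, PIM2, SOCS3 and STAT3) and 0 higher, where 8.19% of all genes were lower and 6.79% higher. In DESeq2 PIM1, PIM2 and SOCS3 passed, 3 of 10, all lower, against 1.61% of all genes called lower (1.39% higher, 2.99% in either direction), and in limma-voom 0 passed, against 0.678%. Without the filter on low counts 4 passed (PIM1, PIM2, SOCS3 and STAT3), all lower, against 2.15% of genes called lower. With 1 library left out, the log2 fold changes of these 4 stayed negative. They ranged from -1.01 to -0.73 for PIM1, -0.72 to -0.59 for PIM2, -1.44 to -0.88 for SOCS3 and -0.57 to -0.45 for STAT3. CISH and JAK2 also stayed negative, from -0.67 to -0.12 and from -0.63 to -0.15. Where a group had 1 library left, its variation was taken from the other group. With all 4 libraries 9 of the log2 fold changes were negative, with a median of -0.45 over the 10 genes. Over all tested genes the median was -0.0089, and 51.2% were negative. The 7 feedback genes had a median of -0.49, and JAK2, STAT5A and STAT3 had a median of -0.41. The order of these medians depended on the library left out. They were -0.72 against -0.26 without Ctrl 1, and -0.12 against -0.50 without Ctrl 2. Without knockdown 1 they were -0.38 against -0.42, and without knockdown 2 -0.575 against -0.37. Both knockdown libraries lay below both Ctrl libraries in 6 of the 10 genes and above them in 0, a separation found downward in 23.0% of tested genes and upward in 23.1%.

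**Figure D1:**
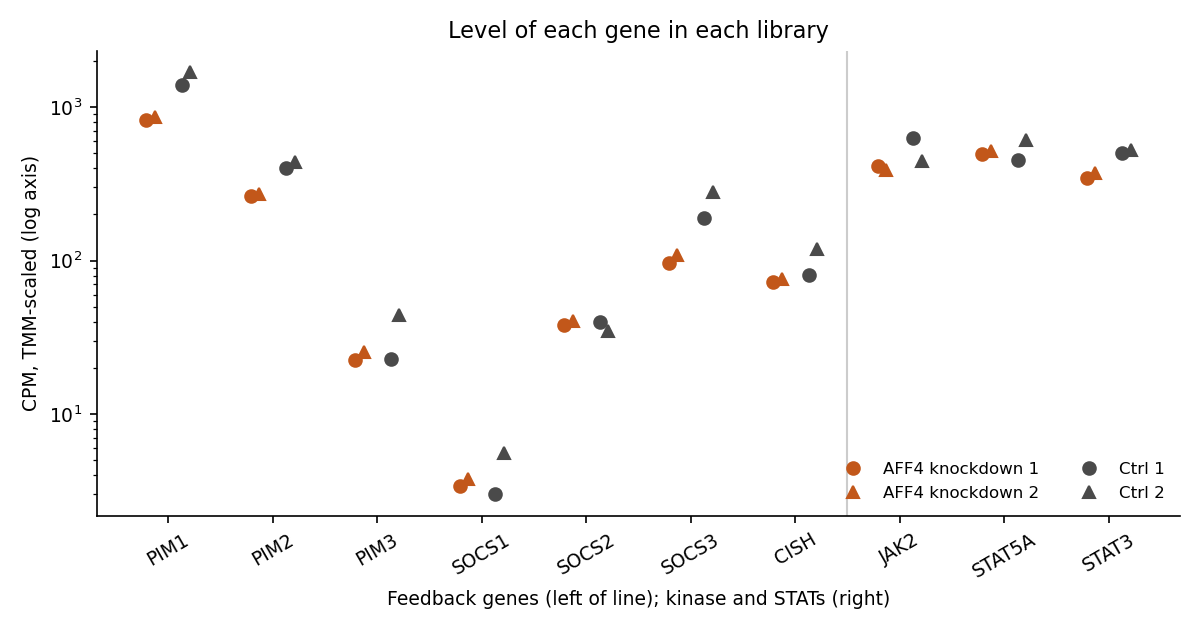
TMM-scaled CPM on a log axis for each gene in each library, with knockdown libraries in orange to the left of Ctrl libraries in grey, replicate 1 as circles and replicate 2 as triangles. The knockdown libraries sit below both Ctrl libraries for PIM1, PIM2, SOCS3, CISH, JAK2 and STAT3, and the Ctrl libraries lie further apart than the knockdown libraries for most genes.

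PIM1, the most abundant of the PIM kinases and a well-known STAT5 target, lies on chromosome 6 (37170203 to 37175426, plus strand, GRCh38/hg38). It had 825 and 858 CPM in the knockdown libraries, against 1399 and 1697 CPM in the Ctrl libraries, from 14929 and 14452 counts against 26133 and 25347 counts. The groups did not overlap, and the gap between them was wider than the gap within either. The log2 fold change was -0.88 ± 0.14 (SE), a level 45.6% lower, and the edgeR adjusted p of 0.0519 just missed the threshold, while DESeq2 called it (adjusted p = 7.7e-04). In all 2.81% of tested genes had a log2 fold change as low or lower. In bulk RNA, fewer cells expressing a gene and less of its RNA per cell cannot be told apart.

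PIM2 (chromosome X, 48913182 to 48919024, minus strand), another PIM kinase that is prominent in blood cells, followed the same pattern at a lower level. It had 263 and 270.5 CPM in the knockdown libraries and 403 and 439.6 CPM in the Ctrl libraries, again without overlap. Its log2 fold change was -0.66 ± 0.13 (SE), with an edgeR adjusted p of 0.0808 and a DESeq2 adjusted p of 0.0199.

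PIM3 (chromosome 22, 49960513 to 49964080, plus strand), a further paralog, had 22.5 and 25.3 CPM in the knockdown libraries and 22.9 and 44.3 CPM in the Ctrl libraries. Here the groups overlapped, because Ctrl 1 lay between the knockdown libraries and only Ctrl 2 stood above them. The log2 fold change of -0.49 ± 0.31 (SE) was within the spread of the libraries (edgeR adjusted p = 0.533). Without Ctrl 1 it was -0.89 and without Ctrl 2 it was 0.06, so 1 Ctrl library decided its sign.

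The sequences before the starts of CISH and PIM1 are shown because CISH is the classical STAT5 feedback gene whose promoter carries clustered STAT motifs, and PIM1 is the most abundant gene of the set. Both are from RefSeq (GRCh38.p14), run from 250 bases before to 50 bases after the annotated start, and read 5′ to 3′ on the strand of the gene.
CISH, chr3:50611725-50612024, minus strand, capitals mark TTCNNNGAA: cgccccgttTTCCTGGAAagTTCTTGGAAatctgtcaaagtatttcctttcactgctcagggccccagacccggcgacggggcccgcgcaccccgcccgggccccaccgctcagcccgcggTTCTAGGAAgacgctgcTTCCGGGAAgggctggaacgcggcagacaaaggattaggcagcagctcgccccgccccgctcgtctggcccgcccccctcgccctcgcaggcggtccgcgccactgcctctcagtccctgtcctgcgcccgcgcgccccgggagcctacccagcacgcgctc
PIM1, chr6:37169902-37170201, plus strand, capitals mark GGGCGG or CCGCCC: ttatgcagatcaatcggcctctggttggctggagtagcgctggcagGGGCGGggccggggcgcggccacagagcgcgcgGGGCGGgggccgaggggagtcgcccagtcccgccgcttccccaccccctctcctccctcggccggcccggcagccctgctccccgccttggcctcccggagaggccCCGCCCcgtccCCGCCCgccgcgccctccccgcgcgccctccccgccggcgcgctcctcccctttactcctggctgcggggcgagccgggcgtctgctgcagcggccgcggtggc

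TTCNNNGAA, which reads the same on both strands, is the core of the site that most STAT dimers bind. The CISH window held 4 matches, beginning 241, 230, 129 and 112 bases before the start, and they did not overlap. Of 35116 RefSeq windows of this length 7.66% held at least 1 match and 7 windows (0.0199%) held 4 or more. RefSeq windows were present for 9 of the 10 genes, and CISH was the 1 gene with a match. GGGCGG on either strand, the GC box bound by SP factors, was in 8 of the 15 windows of these genes (53.3%) and in 45.0% of all windows, and the PIM1 window had 4. A match describes these letters in this window only, and its absence says nothing of sites elsewhere.

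SOCS3 (chromosome 17, 78356778 to 78360077, minus strand), the suppressor that blocks JAK2 on gp130-type and erythropoietin receptors and is a STAT3 target, had the lowest log2 fold change of the set. It had 97.2 and 108 CPM in the knockdown libraries, against 189 and 279 CPM in the Ctrl libraries. The groups did not overlap, although the Ctrl libraries were themselves far apart. The log2 fold change was -1.19 ± 0.21 (SE), a level 56.1% lower, with an edgeR adjusted p of 0.0641 and a DESeq2 adjusted p of 4.85e-05. Of all tested genes 1.18% had a log2 fold change as low or lower. That of SOCS3 ranged from -1.44 without Ctrl 1 to -0.88 without Ctrl 2.

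CISH (chromosome 3, 50606490 to 50611831, minus strand), which binds phosphorylated receptor tails in competition with STAT5, had 72.9 and 76.0 CPM in the knockdown libraries and 80.6 and 119 CPM in the Ctrl libraries. The groups did not overlap, but the nearer Ctrl library lay close to the knockdown. Its log2 fold change of -0.42 ± 0.21 (SE) did not pass (edgeR adjusted p = 0.409). It was -0.67 without Ctrl 1 and -0.12 without Ctrl 2. CISH shares 218 exonic bases with MAPKAPK3 on the opposite strand. MAPKAPK3, a kinase downstream of p38, had a log2 fold change of -0.10 ± 0.17, and reads in the overlap cannot be assigned, because the strand setting used for counting is not known.

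SOCS1 and SOCS2 did not pass with all 4 libraries, and their groups overlapped. SOCS1 (chromosome 16, 11254405 to 11256200, minus strand), an inhibitor of JAK kinases best known in interferon signalling, was the scarcest gene of the set, at 3.43 and 3.80 CPM in the knockdown libraries and 3.0 and 5.62 CPM in the Ctrl libraries. These levels rest on 62 and 64 counts in the knockdown and 56 and 84 in Ctrl, and the log2 fold change was -0.24 ± 0.33 (SE; edgeR adjusted p = 0.825). As for PIM3, 1 Ctrl library decided the sign of SOCS1, which was -0.64 without Ctrl 1 and 0.27 without Ctrl 2. SOCS2 (chromosome 12, 93569814 to 93583487, plus strand), the suppressor of growth hormone signalling, had 38.1 and 40.2 CPM in the knockdown libraries and 39.7 and 34.7 CPM in the Ctrl libraries. With 0.07 ± 0.17 (SE) it had the 1 positive log2 fold change among the 10 (edgeR adjusted p = 0.908). SOCS2 shares 277 exonic bases with the antisense gene SOCS2-AS1, which had only 25 and 23 counts in the knockdown and 19 and 7 in Ctrl.

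JAK2 (chromosome 9, 4984390 to 5128183, plus strand), the kinase of the erythropoietin and thrombopoietin receptors, had 416 and 390.5 CPM in the knockdown libraries and 626 and 447 CPM in the Ctrl libraries. Both knockdown libraries lay below both Ctrl libraries, but the Ctrl libraries were further from each other than the lower of them was from the knockdown. The log2 fold change was -0.41 ± 0.18 (SE; edgeR adjusted p = 0.348). Without Ctrl 1 it was -0.15 and without Ctrl 2 it was -0.63.

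STAT3 (chromosome 17, 42313324 to 42388568, minus strand), the STAT of interleukin-6 and related cytokines, had nearly equal Ctrl libraries, with 346 and 370.0 CPM in the knockdown libraries and 505 and 525 CPM in the Ctrl libraries. The 2 groups were well apart and each was tight. Its log2 fold change was -0.52 ± 0.13 (SE; edgeR adjusted p = 0.120; DESeq2 adjusted p = 0.106), and it stayed between -0.57 and -0.45 over 14 alternative settings. STAT5A (chromosome 17, 42287547 to 42311943, plus strand), one of the paired STAT5 factors that JAK2 activates, had 492 and 519 CPM in the knockdown libraries and 454 and 607 CPM in the Ctrl libraries, so both knockdown libraries lay between the Ctrl libraries. This gave a log2 fold change near 0, at -0.07 ± 0.17 (SE; edgeR adjusted p = 0.908). With a single Ctrl library STAT5A differed in opposite directions, at -0.26 without Ctrl 1 and 0.16 without Ctrl 2. STAT5A and STAT5B are near-identical in long stretches, so the split of reads between them is uncertain.

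**Figure D2:**
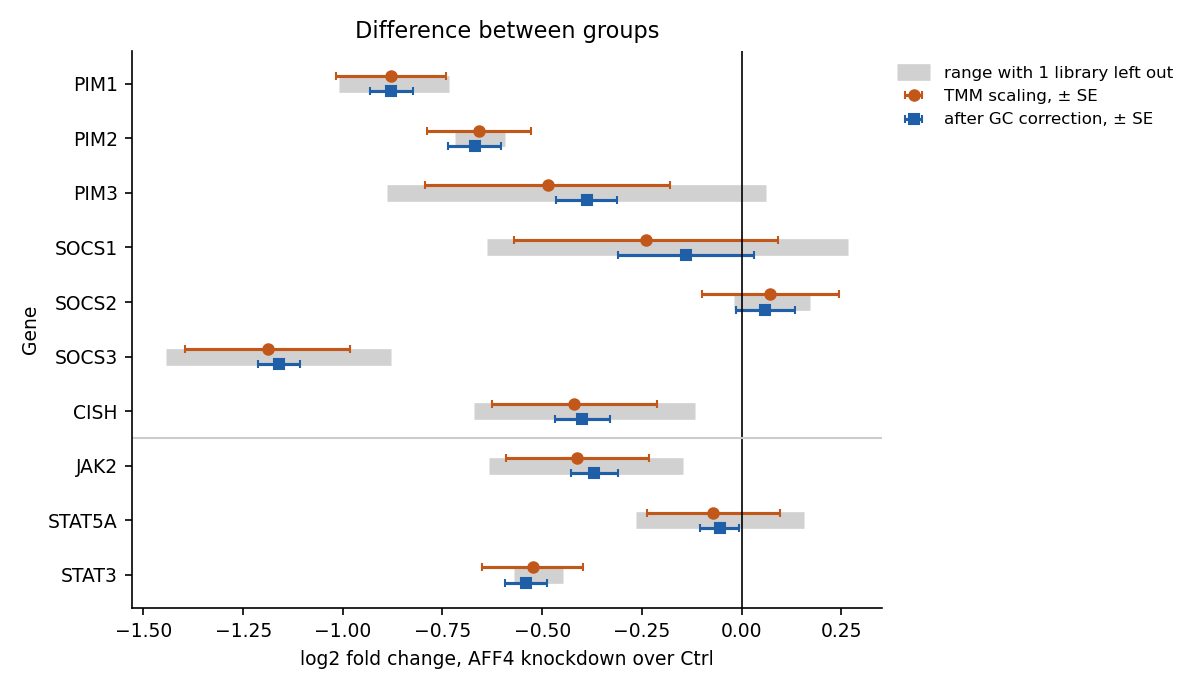
Log2 fold change of the knockdown over Ctrl for each gene, with the standard error, from TMM-scaled counts (orange circles) and after a correction for GC content (blue squares), and as grey bars the range over the 4 fits that leave out 1 library. SOCS3, PIM1, PIM2 and STAT3 stay below 0 throughout, whereas the bars of PIM3, SOCS1, SOCS2 and STAT5A cross 0.

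Ratios of counts between genes of the same library do not depend on how libraries are scaled, and they were formed here after the values had been seen. PIM1 had 1.68 and 1.65 counts for each count of STAT5A in the knockdown libraries, against 3.09 and 2.79 in the Ctrl libraries. SOCS3 had 0.198 and 0.209 counts for each count of STAT5A in the knockdown libraries, against 0.417 and 0.460 in the Ctrl libraries. JAK2 had 0.845 and 0.753 in the knockdown libraries and 1.38 and 0.736 in the Ctrl libraries, which overlap. The ratio of SOCS3 to CISH was 1.33 and 1.43 in the knockdown libraries and 2.34 and 2.36 in the Ctrl libraries, and here the Ctrl libraries lay close together. PIM1 and PIM2 were nearer to each other, at 3.13 and 3.17 counts of PIM1 for each count of PIM2 in the knockdown and 3.48 and 3.86 in Ctrl. With 2 libraries a group no exact test of a single ratio can reach the threshold, and none is given.

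The gap between the Ctrl libraries went with the GC content of the transcripts. For JAK2, at 39.2% GC, Ctrl 2 lay below Ctrl 1 by a log2 difference of -0.49. For PIM3 and SOCS1, at 67.1% and 69.1% GC, Ctrl 2 lay above Ctrl 1 by 0.95 and 0.91. Across the 10 genes Spearman's rho between GC content and this difference was 0.98, and across 13157 tested genes with a GC value it was 0.81. These are descriptions across genes that share the same libraries, and genes are not independent replicates. Between the knockdown libraries the median absolute log2 difference of the 10 genes was 0.0838, against 0.453 between the Ctrl libraries. The difference of knockdown 2 minus knockdown 1 also went with GC content, with a rho of 0.73 across the 10 genes and 0.41 across the 13157. The log2 fold change between the groups had a rho with GC content of -0.0037 across all genes.

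**Figure D3:**
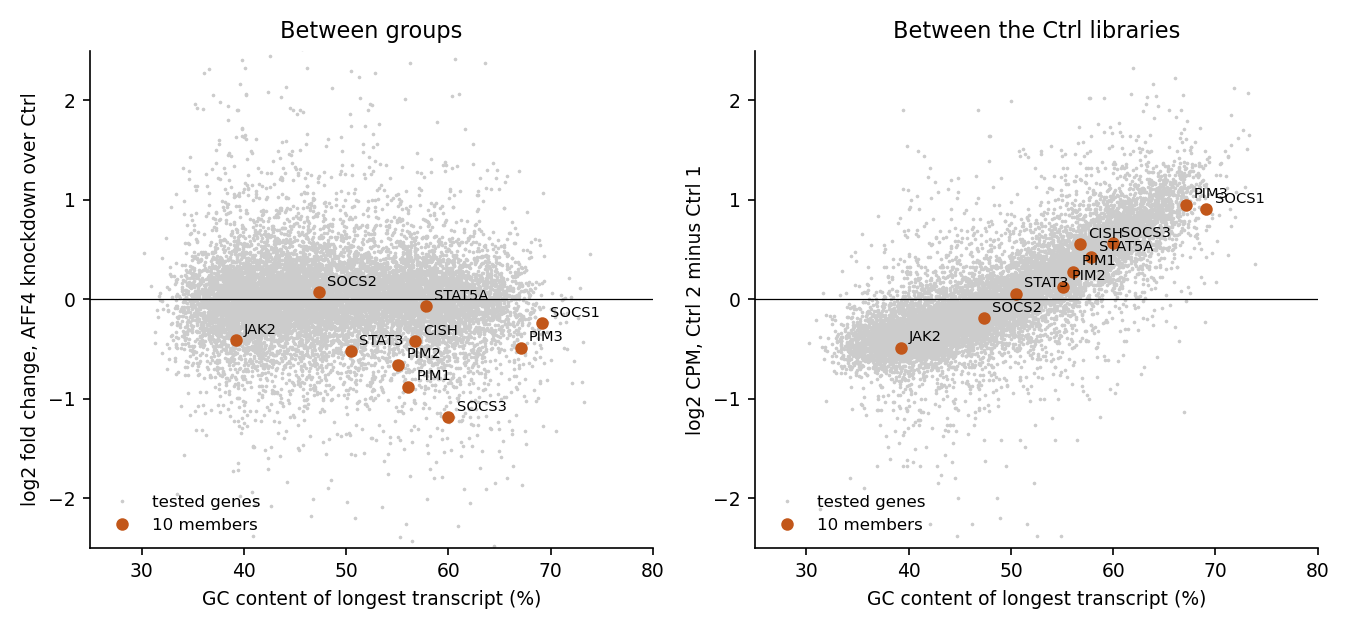
Log2 fold change of the knockdown over Ctrl (left) and log2 difference between Ctrl 2 and Ctrl 1 (right) against the GC content of the longest transcript in percent, with tested genes in grey, the 10 genes in orange and genes beyond the axis not drawn. The right cloud slopes upward, with JAK2 at the low end and PIM3 and SOCS1 at the high end, while the left cloud is level.

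After a trend with GC content was taken out of each library, 7 of the 10 genes fell in the edgeR test, against 14% of all tested genes called lower and 28.2% called in either direction. They were PIM1, PIM2, PIM3, SOCS3 and CISH among the 7 feedback genes, and JAK2 and STAT3 among the other 3. Corrected levels of SOCS3 were 101 and 105 CPM in the knockdown and 232 and 227 CPM in Ctrl, and its log2 fold change was -1.16 ± 0.053 (SE; edgeR adjusted p = 7.26e-05). PIM1 had -0.88 ± 0.054, PIM2 -0.67 ± 0.067 and STAT3 -0.54 ± 0.053 (SE; edgeR adjusted p of 1.43e-04, 7.87e-04 and 7.47e-04). The smaller falls were those of CISH, PIM3 and JAK2, with -0.40 ± 0.069, -0.39 ± 0.077 and -0.37 ± 0.058 (SE; edgeR adjusted p of 0.00579, 0.0101 and 0.00418). In corrected levels the groups did not overlap for 9 of the 10 genes, all lower, against 32.3% of tested genes, and SOCS2 was the exception. For PIM3 the corrected levels were apart, at 24.0 and 24.2 CPM in the knockdown and 32.0 and 31.1 CPM in Ctrl. SOCS1, SOCS2 and STAT5A did not pass, with -0.14 ± 0.17, 0.06 ± 0.074 and -0.05 ± 0.050 (SE; edgeR adjusted p of 0.599, 0.590 and 0.448). The log2 fold changes moved little, by at most 0.10, and it was mainly their standard errors that shrank, with a median absolute difference between the corrected Ctrl libraries of 0.0853 over the 10 genes.

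Per kilobase of exons PIM1 stood far above its paralogs in both groups. The length used joins the exons of all annotated transcripts of a gene, whether or not they are expressed here. For CISH it was 5112 bases, in a gene that runs from 50606490 to 50611831. Levels, ranks and shares of different genes on this scale are therefore rough, while the comparison of groups for 1 gene is not affected. PIM1 had 283 ± 7.89 CPM per kilobase in the knockdown and 520.0 ± 70.7 in Ctrl, PIM2 had 96.7 ± 1.85 and 152.5 ± 9.46, and PIM3 had 9.71 ± 0.806 and 13.6 ± 6.15 (mean ± SD, n = 2 each). The order of the PIM family was the same in each library. Among SOCS1 to SOCS7 and CISH, SOCS3 was highest, at 37.6 ± 2.89 CPM per kilobase in the knockdown and 85.6 ± 23.4 in Ctrl, followed by CISH at 14.6 ± 0.423 and 19.5 ± 5.25. SOCS3 made up 49.3% and 51.3% of the summed level of these 8 genes in the knockdown libraries, against 62.3% and 68.9% in the Ctrl libraries. SOCS2, SOCS4, SOCS5 and SOCS6 lay between 3.69 and 6.33 CPM per kilobase in every library, and in Ctrl the ranges of SOCS2, SOCS4 and SOCS5 overlapped.

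JAK2 and JAK1 were the main JAK kinases, at 65.3 ± 2.89 and 61.4 ± 0.921 CPM per kilobase in the knockdown and 86.9 ± 20.5 and 59.6 ± 5.42 in Ctrl (mean ± SD, n = 2 each). JAK2 was 1.08-fold and 1.04-fold above JAK1 in the knockdown libraries, against 1.6-fold and 1.30-fold in the Ctrl libraries. Which of them is higher also depends on the exonic lengths used. Among the STATs, STAT5A (87.8 ± 3.32 in the knockdown, 92.2 ± 18.9 in Ctrl) and STAT5B (73.7 ± 0.196 in the knockdown, 72.3 ± 6.26 in Ctrl) were highest, with STAT5A above STAT5B in every library. STAT3 came next, at 40.7 ± 1.89 CPM per kilobase in the knockdown and 58.4 ± 1.64 in Ctrl.

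**Figure D4:**
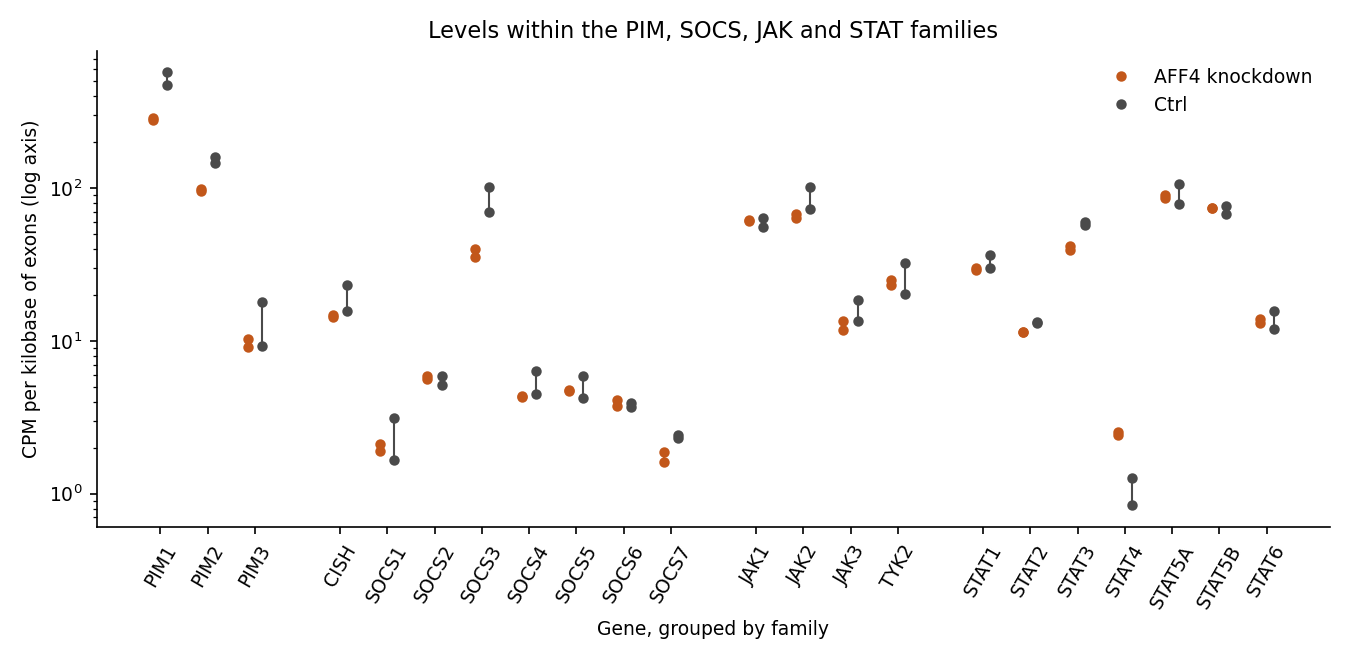
CPM per kilobase of exons on a log axis for the genes of the PIM, SOCS, JAK and STAT families, with knockdown libraries in orange to the left of Ctrl libraries in grey and each point a library. PIM1, PIM2, SOCS3 and STAT3 stand lower in both knockdown libraries than in both Ctrl libraries, and STAT4 stands higher.

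The rest of the pathway was covered by 5 lists with 82 other genes, 73 of them tested, of which 0 rose and 1 fell (the edgeR test, adjusted over all genes; 0.346% of all genes were higher and 0.295% lower). Their median log2 fold change was -0.14. The gene that fell was CBL, a ubiquitin ligase that marks activated receptors and kinases for degradation. CBL had 76.7 and 77.5 CPM in the knockdown libraries, against 170.5 and 166 CPM in the Ctrl libraries, and the 2 libraries of each group were nearly equal. Its log2 fold change was -1.13 ± 0.14 (SE; edgeR adjusted p = 0.0357), and the call was lost with a stricter filter on low counts (0.0573) and without either knockdown library (up to 0.474). Among the other 18 tested adaptors, phosphatases and PIAS genes, 0 passed, and the list had a median of -0.03.

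The other JAK and STAT genes had a median of -0.08, and 0 of 8 passed the edgeR test. STAT4, a STAT of interleukin-12 signalling, differed most, with 12.1 and 11.6 CPM in the knockdown libraries and 6.10 and 4.02 CPM in the Ctrl libraries (log2 fold change 1.22 ± 0.25 SE; edgeR adjusted p = 0.0869; DESeq2 adjusted p = 0.0104). JAK3 and STAT2 had -0.34 and -0.21, with edgeR adjusted p of 0.483 and 0.578. JAK3 was -0.55 without Ctrl 1 and -0.10 without Ctrl 2. Of SOCS4 to SOCS7, 0 of 4 passed, with a median of -0.21, and SOCS7, SOCS4 and SOCS5 had log2 fold changes of -0.43, -0.32 and -0.09 (edgeR adjusted p of 0.354, 0.553 and 0.901). SOCS4 was -0.05 without Ctrl 1 and -0.55 without Ctrl 2, and SOCS5 was 0.17 and -0.31 in those fits. At an unadjusted p under 0.05 the JAK and STAT list had 1 higher and 0 lower, and the SOCS list 0 in either direction. Of all tested genes 6.79% were higher and 8.19% lower at that threshold.

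Of 27 cytokine receptor chains 21 were tested and 0 passed in edgeR, with a median log2 fold change of -0.26. At an unadjusted p under 0.05, 2 chains were higher and 3 lower, where 6.79% of all tested genes were higher and 8.19% lower. The interferon receptor chain IFNAR1 had 75.8 and 79.3 CPM in the knockdown libraries and 154 and 119 CPM in the Ctrl libraries (log2 fold change -0.82; edgeR adjusted p = 0.0933; DESeq2 adjusted p = 0.00738). IL7R and the leptin receptor LEPR had 1.03 and -0.58 (edgeR adjusted p of 0.0942 and 0.170), and DESeq2 called IL7R (adjusted p = 0.0413). Of 24 other genes known as STAT5 or STAT3 targets, 21 were tested and 0 passed, with a median of -0.21 and 16 of them negative. At an unadjusted p under 0.05, 2 targets were higher and 7 lower, against the same 6.79% and 8.19% of all tested genes. The angiogenic factor VEGFA (-0.67), the cyclin CCND2 (-0.54) and the cytokine OSM (-0.82) had the smallest p-values of that list, with edgeR adjusted p of 0.106, 0.147 and 0.163, and DESeq2 called VEGFA alone (adjusted p = 0.0327). Of the 12 genes named from these lists beside CBL, SOCS5 alone changed sign with 1 library left out. LEPR ranged from -0.38 without Ctrl 1 to -0.76 without Ctrl 2. After the GC correction 11 of the 73 other pathway genes were called higher and 25 lower, against 14.2% and 14% of all tested genes.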

How the data were processed

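RNA-seq counts of 2 AFF4 knockdown and 2 Ctrl libraries of HEL cells were used. The deposited values were whole-number counts per gene symbol. The submitters' processing notes name featureCounts 1.6.1, HISAT2 2.1.0, fastp 0.13.1 and build hg38. Annotation, strand setting and the handling of reads with several matches: the sources used here do not give them. Per the labels' protocols the libraries were poly(A)-selected, strand-marked with dUTP and amplified by PCR.

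The 4 count columns were matched to samples by title. Genes were kept by filterByExpr (minimum count 10, minimum total 15) and scaled by TMM, which treats most genes as unchanged, and all 13572 were tested with the quasi-likelihood F test of edgeR 4.0.16 in R 4.3.3, with the group as the only term and Benjamini-Hochberg adjustment over all of them. The standard error is the absolute log2 fold change over the square root of F. DESeq2 1.42.0 and limma 3.58.1 were alternatives. The GC correction enters, as an offset, a lowess trend (span 0.4) of log-CPM (prior count 2) on transcript GC content, known for 97.0% of tested genes. Positions, exonic lengths and GC content came from GENCODE annotation of GRCh38, by symbol, and promoter windows from RefSeq. The procedures were tested on simulated data.

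The members, lists and alternatives were chosen with earlier results of these data known. The genes named are the 10 members, AFF4 and, for each other pathway list, the members that passed, or otherwise the 3 with the smallest p. The overlapping genes SOCS2-AS1 and MAPKAPK3 and the other paralogs of the members, given by level, were added.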

Additional observations from a re-analysis of the deposited data

How the results depend on the processing

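The number of called genes, and of members among them, depended on the filter, the tool and the libraries. Against 47 genes higher, 40 lower and 0 of the 10 members called, there were 328 higher, 406 lower and 4 members with no filter on low counts, and 188, 218 and 3 in DESeq2. With at least 5 CPM in at least 2 libraries 1 gene was higher and 4 lower, and SOCS1 was not tested. After the GC correction 1924 were higher and 1899 lower, with 7 members. With 1 library left out, between 42 and 3406 genes were higher, between 15 and 3305 lower, and between 0 and 8 members passed; the high counts came without Ctrl 1 (2890 higher, 3043 lower, 8 members) or Ctrl 2 (3406, 3305 and 6), the low ones without knockdown 1 (45, 15 and 0) or knockdown 2 (42, 17 and 0). Where a group had 1 library left, its variation was taken from the other group, and the cause of these differences was not tested. In the fits without a Ctrl library the calls over all genes rose together with those of the members. Whether members passed more often than other genes there was not tested. Without Ctrl 2 the members that passed were not all lower, since STAT5A was called higher, with a log2 fold change of 0.16. Upper quartile, RLE and library-size scaling, limma-voom and an adjusted p under 0.01 left 0 members called.

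With the replicate number as a block 408 genes were higher, 480 lower and 4 members called (PIM1, PIM2, SOCS3 and STAT3, against 3.54% of all genes called lower), and with the block and the GC correction 2663, 2589 and 7. Same-numbered libraries deviated from their group means with a correlation of 0.29, and replicate 2 minus replicate 1 had the same sign in both groups for 9 of the 10 members. The labels do not say what a number marks, and with 2 pairs it was not decided whether the numbers pair the libraries.

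The median log2 fold change of the 7 feedback genes (-0.49) ranged from -0.72 to -0.12 with 1 library left out. That of JAK2, STAT5A and STAT3 (-0.41) was -0.38 with library-size scaling, -0.37 after the GC correction, with or without the block, and between -0.50 and -0.26 with 1 library left out. Signs turned without Ctrl 2 for PIM3 (0.062, range from -0.89), SOCS1 (0.27, range from -0.64), SOCS2 (-0.02, range to 0.17) and STAT5A (0.16, range from -0.26), and without Ctrl 1 for SOCS5 (0.17, range from -0.31). AFF4 kept its call in 13 of 14 alternatives (0.0552 with the stricter filter). The depth limits SOCS1 most, at under 100 counts a library.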
